A study of Sus scrofa with 6 samples.

Results

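The genes described here encode the factors that start and extend protein chains on the ribosome and the tRNA synthetases that attach amino acids to tRNAs, measured in the long back muscle of young pigs. They were taken from the array's annotation: probe sets whose gene symbol begins with EIF or EEF and a digit, or whose title names a tRNA synthetase, a translation initiation factor or a translation elongation factor, without the binding proteins that inhibit eIF4E. This gave 55 genes of the 8599 with an Entrez ID on the array, read by 78 of 23999 non-control probe sets: 33 probe sets of initiation (26 genes), 5 of elongation (3 genes) and 40 of amino acid charging (26 genes). The annotation alone decided membership, although earlier results of these data were known when the group was set.

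Translation begins when eIF2 brings the initiator tRNA to the small ribosomal subunit, eIF3 holds the subunit open, and the eIF4 factors load the mRNA through its cap. In elongation, eEF1A carries each charged tRNA to the ribosome and the other eEF1 subunits reload it with GTP. The tRNA synthetases supply those charged tRNAs, with a largely separate set of nuclear-encoded enzymes for the ribosomes inside mitochondria. In muscle this machinery sets how fast fibre proteins can be made, and it is a main target of insulin and amino acid signalling after birth.

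The samples were longissimus dorsi muscle of 6 male piglets of 25 days, 1 Affymetrix porcine array per animal: 3 Yorkshire and 3 Shaziling, numbered 1 to 3 and 4 to 6 in the labels. Piglets of the same breed were full siblings, with a separate farm for either breed, so breed, litter and farm cannot be told apart, and p-values measure the spread between siblings. No treatment, transgene or sort was given in the labels. All breed differences below are Shaziling minus Yorkshire, as log2 fold changes, of the MAS5 signal, and adjusted p-values come from limma over all 14413 probe sets called Present (above background) on 3 or more arrays. Signals of different probe sets are not amounts of RNA and were not compared with one another.

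Present calls covered 56.3% to 60.6% of probe sets per array, and 67 to 70 of the 78 probe sets of this machinery. All 6 muscle fibre markers were tested, with a summed signal of 16.97 to 17.36 in Yorkshire and 17.20 to 17.39 in Shaziling (log2 of the sum). ACTA1, CKM, MYH4, MYH7, TTN and MB were each Present on all 6 arrays. Markers of other cell types were also tested, with summed signals given for Yorkshire against Shaziling: adipocytes (3 of 4 tested) at 11.26 to 12.08 against 12.07 to 12.26, endothelium (3 of 4) at 11.59 to 12.73 against 11.59 to 12.50, leukocytes (3 of 5) at 8.97 to 10.31 against 9.63 to 10.05, and fibroblasts (3 of 4) at 15.35 to 15.802 against 15.40 to 15.75. The erythroid list had 0 of 3. None of these markers passed the threshold in limma. The adipocyte genes did not share a direction, with FABP4 at 0.47 (SE 0.25), LEP at 0.24 (SE 0.33) and ADIPOQ at -0.52 (SE 0.68). In a piece of muscle, fewer cells of a type and less RNA per cell cannot be told apart.

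No gene of the translation machinery passed an adjusted p of 0.05 in limma: 0 of 69 tested probe sets, against 31 of all 14413 (0.215%). At an unadjusted limma p under 0.05 there were 5 of the 69 (7.25%), 1 higher and 4 lower in Shaziling, against 10.4% of all tested probe sets (4.38% higher and 6.02% lower). The 3 signals of one breed lay apart from the 3 of the other in 11 of the 69 (15.9%), 3 higher and 8 lower, against 16.3% of all (7.42% higher and 8.89% lower). Both shares were near those of the array as a whole. The smallest adjusted p belonged to 2 mitochondrial tRNA synthetases, for histidine and methionine, with changes of -54.8% and -49.2% from the Yorkshire to the Shaziling mean (log2 fold changes of -1.14 and -0.98). Without a test of their own past the threshold, these are given below as values.

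**Figure D1:**
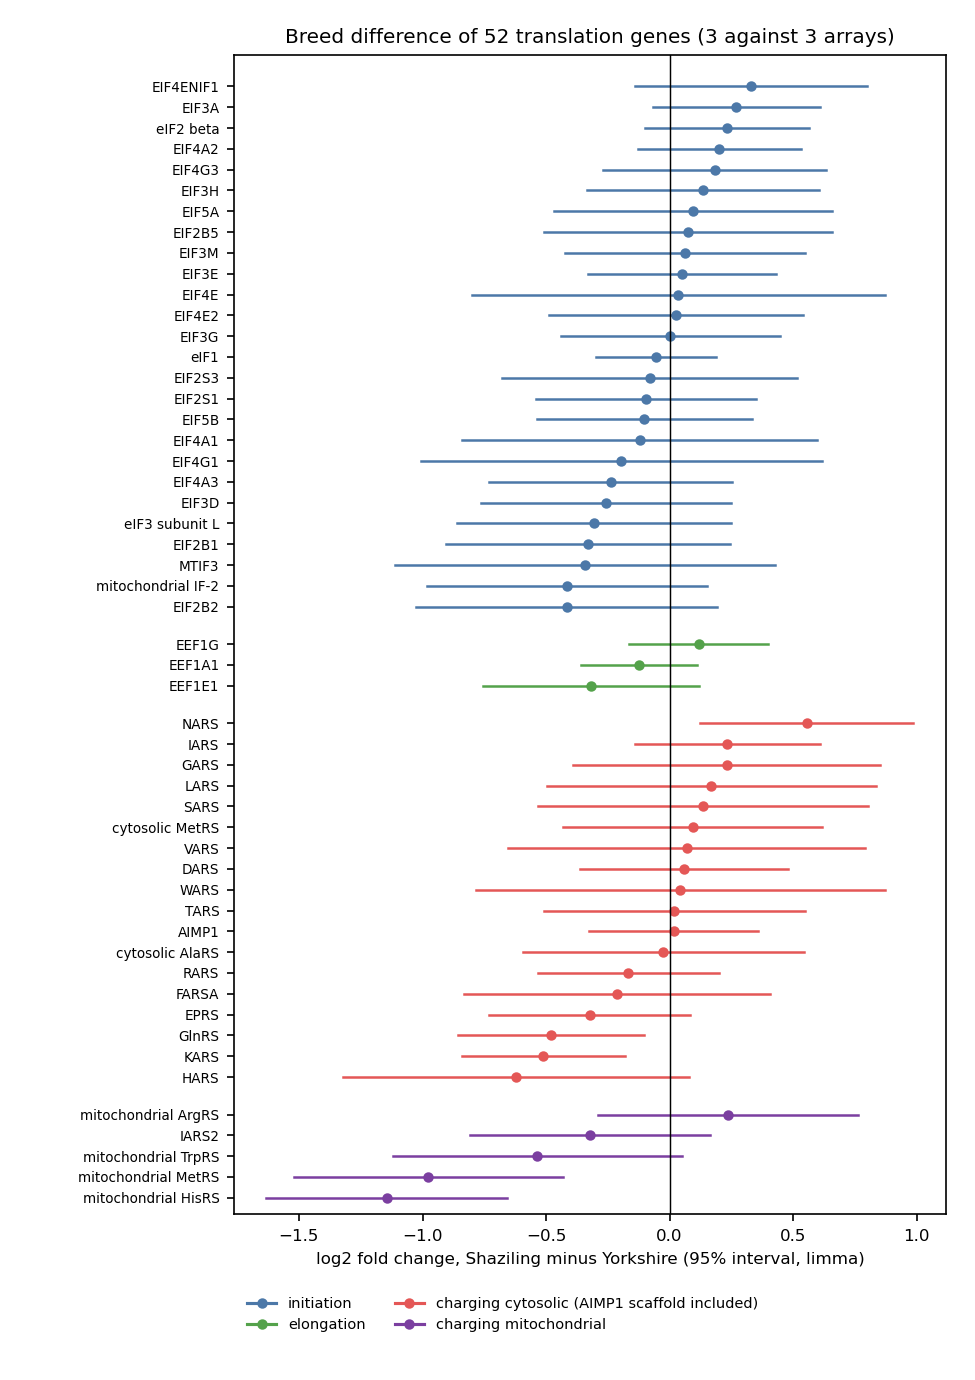
Breed difference of the 52 genes with a tested probe set, grouped by role. The horizontal axis is the log2 fold change, Shaziling minus Yorkshire; points are limma estimates and bars 95% intervals, not adjusted for the number of tests. Most intervals cross 0; those of NARS, KARS, GlnRS and the mitochondrial HisRS and MetRS do not, and none of the 52 passed an adjusted p of 0.05.

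Of 8 genes of mitochondrial tRNA synthetases, 5 were tested and 4 of these had negative fold changes, with a median of -0.54, against -0.04 for all tested probe sets, of which 46.2% were positive. AARS2, CARS2 and VARS2, for alanine, cysteine and valine, had no Present call on any array and were not tested. The file gives the VARS2 probe set the symbol VARS, and its Entrez ID is that of VARS2.

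The probe set titled as a probable mitochondrial histidyl-tRNA synthetase, which charges the mitochondrial histidine tRNA, had 9.68, 9.66 and 9.32 in Yorkshire and 8.52, 8.28 and 8.43 in Shaziling. All 3 Yorkshire signals were above all 3 Shaziling signals. The means were 9.55 ± 0.21 and 8.41 ± 0.12 (SD, n = 3), a breed difference of -1.14 (SE 0.22, 95% interval -1.63 to -0.66, limma adjusted p = 0.103). This was the smallest adjusted p among the 69 probe sets, and it did not pass. The file places it on chromosome 2 from 129414241 to 129418627, plus strand, in coordinates whose assembly the file does not give in readable form, with an alignment identity of 97.1%. Its neighbour in the RefSeq gene order, on the minus strand in the file, is HARS, the cytosolic histidyl-tRNA synthetase. It was the 1 neighbouring pair found among the members, of which 43 of 54 Entrez IDs were in the RefSeq table.

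The probe set titled as a mitochondrial methionyl-tRNA synthetase, whose product also feeds the formylated initiator of mitochondrial translation, had 7.99, 7.94 and 7.96 in Yorkshire and 7.21, 6.96 and 6.79 in Shaziling. The breeds did not overlap, and the Yorkshire signals lay within a narrow range. The means were 7.96 ± 0.02 and 6.99 ± 0.21 (SD, n = 3), a breed difference of -0.98 (SE 0.24, 95% interval -1.52 to -0.43, limma adjusted p = 0.207). It lies on chromosome 15 from 95062411 to 95063427, plus strand, with an identity of 99.4%.

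The other mitochondrial synthetases had smaller differences. The enzyme for tryptophan had 8.34, 8.98 and 8.43 in Yorkshire and 7.92, 7.91 and 8.31 in Shaziling, without overlap but with Shaziling replicate 6 close to the lowest Yorkshire signal. Its log2 difference was -0.54 (SE 0.26, limma adjusted p = 0.527), and the file's alignment of this probe set had an identity of only 58.1%, so that its gene is less certain. The value was -0.34 without Yorkshire replicate 2 and -0.30 with array weights. IARS2, for isoleucine, had 10.24, 10.27 and 9.92 against 10.09, 9.66 and 9.71. Its groups overlapped, with a breed difference of -0.32 (SE 0.22). The enzyme for arginine was the exception in direction, at 8.83, 8.83 and 8.53 against 8.89, 9.28 and 8.74. Its log2 difference was 0.24 (SE 0.23), and a second probe set of the same gene had 0.09 (SE 0.33).

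With array weights, which let limma count some arrays more than others, 3 of the 69 passed, all lower in Shaziling: the mitochondrial HisRS (adjusted p = 0.0151, range over its alternatives 0.0151 to 0.419), the mitochondrial MetRS (0.0351, range 0.0351 to 0.576) and KARS (0.0491, range 0.0491 to 0.619). That fit called 364 of all probe sets (2.53%) in place of 31, with a weight of 3.62 for Yorkshire replicate 1 and 0.483 to 1.54 for the others. Over all alternatives the log2 fold change ranged from -1.26 to -1.07 for HisRS, from -1.09 to -0.82 for MetRS and from -0.60 to -0.42 for KARS.

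**Figure D2:**
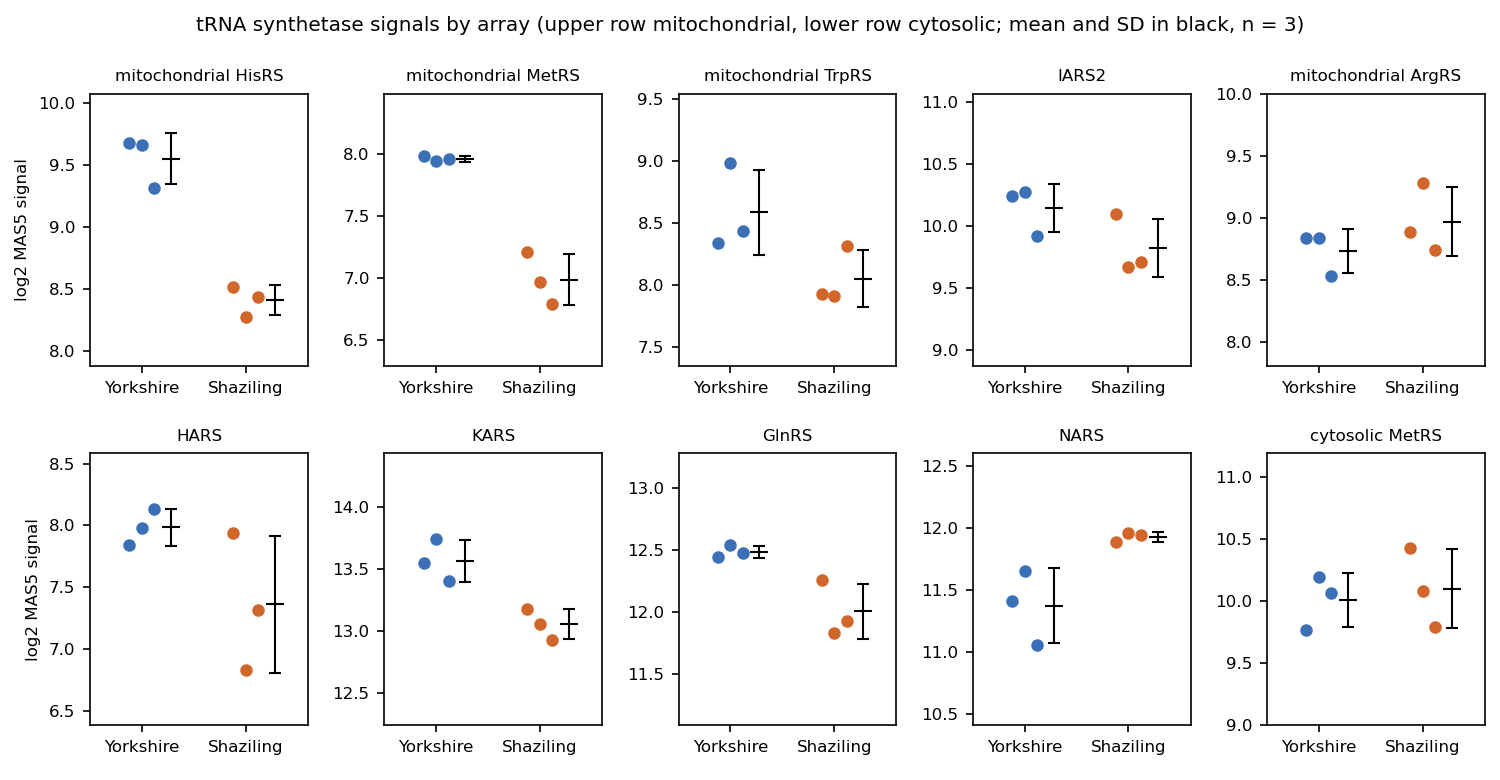
Log2 MAS5 signal of tRNA synthetase genes on each array, 5 mitochondrial (upper row) and 5 grouped as cytosolic (lower row). Yorkshire is blue and Shaziling orange, with the mean and SD in black. Every panel spans the same range of 2.2 log2 units about its own centre; the mitochondrial HisRS and MetRS, KARS and GlnRS are lower in all Shaziling animals and NARS is higher.

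For 5 amino acids both the mitochondrial and the cytosolic enzyme had a tested probe set, and the change of one was set against the change of the other within each array. These pairs were formed after the values had been seen. With 3 arrays against 3, the exact two-sided permutation p cannot be below 0.1, so no pair can pass, and p-values were adjusted over the 5 pairs. For methionine the mitochondrial minus cytosolic difference was lower in Shaziling by a change of -1.07 (exact permutation p = 0.1, adjusted 0.167). There the cytosolic enzyme itself had 9.77, 10.19 and 10.06 in Yorkshire and 10.43, 10.08 and 9.79 in Shaziling, a breed difference of 0.09 (SE 0.23, 95% interval -0.43 to 0.62), with the groups overlapping. For isoleucine the change was -0.55 (exact permutation p = 0.1, adjusted 0.167), where the probe set of the cytosolic enzyme, IARS, had an alignment identity of only 62.2%. For arginine it ran the other way, at 0.40 (exact permutation p = 0.1, adjusted 0.167). For histidine it was -0.52 (exact permutation p = 0.2, adjusted 0.25). There HARS was also negative, at -0.62 (SE 0.31, limma adjusted p = 0.534), from 7.84, 7.98 and 8.14 in Yorkshire and 7.94, 6.83 and 7.32 in Shaziling. For tryptophan it was -0.58 (exact permutation p = 0.4, adjusted 0.4), and it was -0.32, -0.34 and -1.08 without Shaziling replicates 4, 5 and 6. Its cytosolic probe set, of WARS, had 3 Present calls and a breed difference of 0.04, against 0.45 for the other tested WARS probe set. Its mitochondrial probe set had an alignment identity of only 58.1%. The histidine value was -0.29 without Shaziling replicate 4, and the arginine value was 0.25 without Shaziling replicate 5. The within-array differences of the 2 breeds did not overlap for methionine and isoleucine, nor, in the opposite direction, for arginine. They overlapped for histidine and tryptophan. Among single tested probe sets 16.3% had breeds that did not overlap, and no such share was computed for pairs of probe sets.

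**Figure D3:**
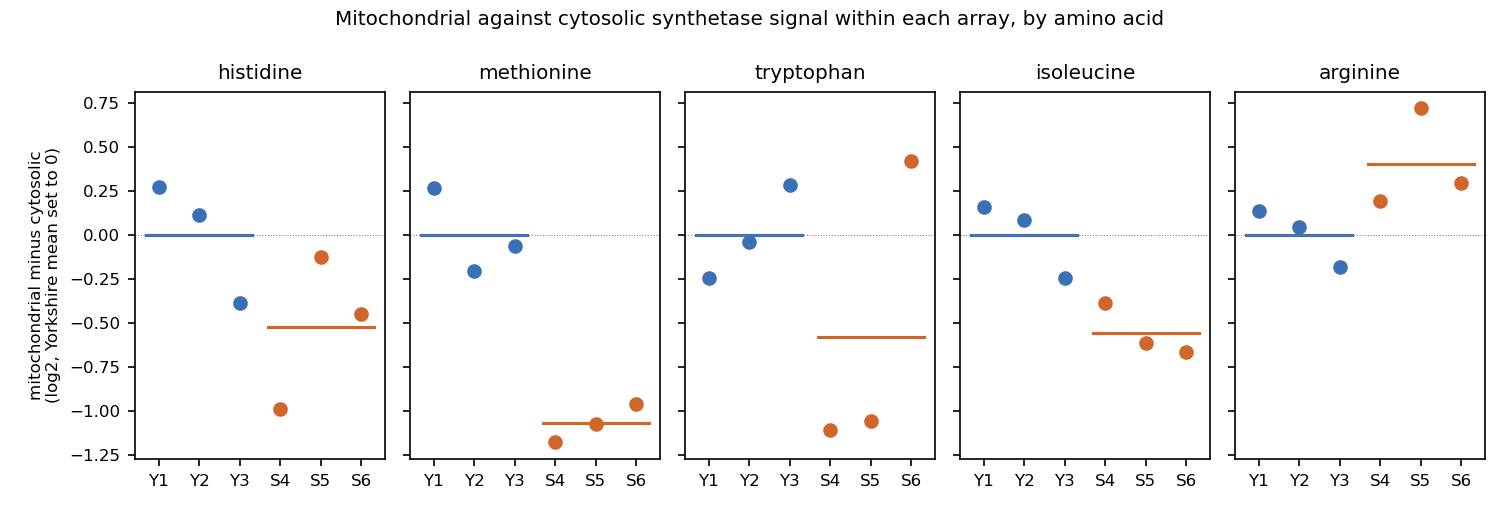
Mitochondrial minus cytosolic log2 signal of the synthetase pair for each of 5 amino acids, by array, with the Yorkshire mean set to 0. Points are arrays (Y Yorkshire, S Shaziling) and lines are breed means; the Shaziling mean differs by -1.07 for methionine, -0.58 for tryptophan, -0.55 for isoleucine, -0.52 for histidine and 0.40 for arginine.

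All 17 tRNA synthetase genes grouped as cytosolic were tested. The group holds those not named as mitochondrial. Some titles, among them those of KARS and GARS, give no compartment, so enzymes that also serve mitochondria may be included. The genes showed no common direction: 10 had positive and 7 negative fold changes, with a median of 0.04. At the level of single genes the values ranged from -0.62 for HARS to 0.56 for NARS.

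KARS, the lysyl-tRNA synthetase, had 13.55, 13.75 and 13.41 in Yorkshire and 13.18, 13.06 and 12.93 in Shaziling. The breeds did not overlap. Its log2 difference was -0.51 (SE 0.15, 95% interval -0.84 to -0.18, limma adjusted p = 0.288). The file places it on chromosome 6 from 8707518 to 8723726, plus strand.

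The probe set titled as glutaminyl-tRNA synthetase had 12.44, 12.54 and 12.48 in Yorkshire and 12.26, 11.83 and 11.93 in Shaziling. It too was lower in all 3 Shaziling animals, with a breed difference of -0.48 (SE 0.17, 95% interval -0.86 to -0.11, limma adjusted p = 0.348). It lies on chromosome 13 from 26666133 to 26668364, minus strand. A second probe set with this title had no Present call.

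NARS, the cytosolic asparaginyl-tRNA synthetase, had 11.41, 11.66 and 11.05 in Yorkshire and 11.88, 11.96 and 11.94 in Shaziling. It was the charging enzyme with the largest positive fold change among the genes, 0.56 (SE 0.19, 95% interval 0.12 to 0.99, limma adjusted p = 0.348). The Shaziling signals were close together and above all Yorkshire signals. It lies on chromosome 1 from 110072703 to 110074640, plus strand.

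LARS, the leucyl-tRNA synthetase, which also serves as a leucine sensor for mTORC1, had 10.67, 10.95 and 10.01 in Yorkshire and 10.55, 10.40 and 11.19 in Shaziling. The groups overlapped, with a breed difference of 0.17 (SE 0.30, 95% interval -0.50 to 0.84). EPRS, which charges both glutamic acid and proline, had 11.64, 11.70 and 11.37 against 11.42, 11.17 and 11.15 for the probe set of highest signal. That gave -0.32 (SE 0.18, limma adjusted p = 0.579), while its other probe sets had 0.14 (SE 0.21) and -0.21 (SE 0.39). The 3 EPRS probe sets thus did not share a sign. GARS, for glycine, had 10.96, 11.28 and 11.34 against 12.05, 10.96 and 11.25, or 0.23 (SE 0.28), with Shaziling replicate 4 above the other 5 arrays. Its other probe sets had -0.14 and 0.07. WARS, an interferon-inducible enzyme for tryptophan, had 7.55, 7.98 and 7.11 against 7.99, 7.93 and 6.85, or 0.04 (SE 0.37). This probe set had 3 Present calls in all, and a further tested one had 0.45 (SE 0.33).

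Among the other cytosolic enzymes, IARS had a breed difference of 0.23 (SE 0.17) and RARS of -0.17 (SE 0.16), each without overlap between breeds. DARS, SARS, TARS, VARS, FARSA and the cytosolic alanyl enzyme ranged from -0.21 for FARSA to 0.14 for SARS. The second probe sets of DARS and SARS had 0.01 (SE 0.37) and 0.22 (SE 0.24). A dim second FARSA probe set, Present on 5 arrays, had 0.63 (SE 0.66). AIMP1, a scaffold of the multi-synthetase complex, had 13.08, 13.36 and 12.95 in Yorkshire and 13.15, 13.23 and 13.06 in Shaziling, a difference of 0.02 (95% interval -0.33 to 0.36). Its second probe set had -0.14 (SE 0.19). Of the charging probe sets without a test, 1 of HARS and 1 of WARS had no Present call and another of WARS had 2.

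Initiation factors showed no common direction: 13 of 26 genes had positive values and 13 negative ones. Their median was -0.03, with a range of -0.42 to 0.33. None of their 31 tested probe sets had an unadjusted limma p under 0.05, against 10.4% of all tested probe sets, and 1 of the 31 (3.23%) had breeds that did not overlap, against 16.3% of all. The 95% interval lay within -1 to 1 for 27 of the 31, so that for these a change of 2-fold or more lies outside it. The same held for 57.5% of all tested probe sets.

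Of the 6 genes of eIF2 and its exchange factor eIF2B, 2 had positive and 4 negative values (median -0.09). EIF2S1, the alpha subunit whose phosphorylation holds back initiation under stress, had 11.22, 11.78 and 11.27 in Yorkshire and 11.30, 11.29 and 11.40 in Shaziling. Apart from Yorkshire replicate 2 the arrays were alike, and the log2 difference was -0.09 (SE 0.20, 95% interval -0.54 to 0.35). The beta subunit had 12.78, 13.06 and 12.75 against 12.99, 13.17 and 13.13, or 0.23 (SE 0.15, limma adjusted p = 0.635). EIF2S3, the gamma subunit, which binds GTP, had -0.08 (SE 0.27). In eIF2B, the complex that reloads eIF2 with GTP, EIF2B2 had 9.97, 11.04 and 10.44 against 10.15, 9.97 and 10.08. Its value of -0.42 (SE 0.27, limma adjusted p = 0.643) was the lowest in the class, and it was -0.14 without Yorkshire replicate 2, -0.67 without Yorkshire replicate 1 and -0.085 with array weights. EIF2B1 had -0.33 (SE 0.26) and -0.39 (SE 0.50) for its 2 probe sets. EIF2B5, the catalytic subunit, had 8.62, 8.87 and 9.28 against 9.28, 8.70 and 9.02, or 0.07 (SE 0.26). The file's alignment of the EIF2B5 probe set had an identity of 51.4%.

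The 7 genes of eIF3 had 5 positive and 2 negative values, with a median of 0.05. EIF3A, the large scaffold subunit, had 12.76, 13.01 and 12.88 in Yorkshire and 12.97, 13.22 and 13.27 in Shaziling. Its log2 fold change of 0.27 (SE 0.15, 95% interval -0.07 to 0.61, limma adjusted p = 0.578) had the smallest p among initiation genes. EIF3E, another core subunit, had 13.51, 13.93 and 13.34 against 13.52, 13.68 and 13.72, or 0.05 (SE 0.17). EIF3H had 13.60, 14.15 and 13.35 against 13.59, 13.91 and 13.99, or 0.13 (SE 0.21). In each of these the groups overlapped. EIF3G, a subunit that binds RNA, had 0.00 (SE 0.20), EIF3M 0.06 and 0.16 for its 2 probe sets, EIF3D -0.26 (SE 0.23) and the probe set titled as subunit L, which the file ties to 2 Entrez IDs, -0.31 (SE 0.25). A second probe set of EIF3D (2 Present calls) and one of EIF3G (1 Present call) were not tested.

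The 8 genes of the eIF4 group had 5 positive and 3 negative values, with a median of 0.03. EIF4E, the cap-binding protein that is limiting for cap-dependent initiation, had 6.19, 6.13 and 6.58 in Yorkshire and 5.70, 6.57 and 6.75 in Shaziling. The groups overlapped and the log2 difference was 0.04 (SE 0.37, 95% interval -0.80 to 0.87). EIF4G1, the scaffold that joins the cap to the ribosome, had 7.24, 6.57 and 6.57 against 6.003, 6.85 and 6.95, or -0.20 (SE 0.36). EIF4G3, a related scaffold, had 0.18 (SE 0.20). The RNA helicase EIF4A1 had 11.02, 10.27 and 11.60 against 10.98, 10.52 and 11.02, or -0.12 (SE 0.32), with all 3 Shaziling signals inside the Yorkshire range. Its paralogue EIF4A2 had 14.52, 14.69 and 14.24 against 14.51, 14.80 and 14.74, or 0.20 (SE 0.15, limma adjusted p = 0.685). EIF4A3, a helicase of the exon junction complex, had -0.24 (SE 0.22). EIF4ENIF1, which carries eIF4E into the nucleus and holds mRNAs silent, was the 1 initiation gene without overlap between breeds, at 9.18, 8.80 and 9.13 against 9.35, 9.37 and 9.38. Its log2 difference was 0.33 (SE 0.21, 95% interval -0.14 to 0.80, limma adjusted p = 0.633). EIF4E2, a cap-binding repressor, had 0.03 (SE 0.23).

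In start selection and subunit joining, 1 of 3 genes was positive. The factor titled as eIF1, which checks the start codon, had 14.67, 14.62 and 14.72 in Yorkshire and 14.69, 14.63 and 14.53 in Shaziling. The arrays were nearly level, with a breed difference of -0.05 (SE 0.11, 95% interval -0.30 to 0.19). A second probe set of the same gene had -0.36 (SE 0.20). EIF5A, the hypusine-bearing factor now known mainly for its part in elongation, had 11.71, 11.25 and 12.10 against 12.15, 11.61 and 11.60, or 0.09 (SE 0.25), and its second probe set also had 0.09 (SE 0.26). EIF5B, the GTPase that joins the subunits, had -0.10 (SE 0.19) and 0.06 (SE 0.26), and the first of these probe sets is also listed under a second EIF5B-like entry.

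Both initiation factors of mitochondria were negative. The probe set titled as IF-2, which places the formylated initiator tRNA on the mitochondrial ribosome, had 10.08, 10.21 and 9.40 in Yorkshire and 9.46, 9.41 and 9.57 in Shaziling. Yorkshire replicate 3 lay with the Shaziling animals, and the log2 difference was -0.42 (SE 0.25, limma adjusted p = 0.609). It was -0.26 without Yorkshire replicate 2 and -0.66 without Yorkshire replicate 3. The identity of its alignment in the file was 65.8%. MTIF3, the partner factor, had -0.34 (SE 0.34). With the synthetases, 6 of 7 tested mitochondrial genes were negative, with a median of -0.42, against 20 of 45 for the other members, with a median of 0.02. Of all 14413 tested probe sets 7759 were negative, with a median of -0.04. Of the 7, 2 had an unadjusted limma p under 0.05, both lower in Shaziling. This was 25% of the 8 tested mitochondrial probe sets, against 10.4% of all tested probe sets (6.02% lower in Shaziling). The 7 genes were read on the same 6 animals, so their count is not a test of breed.

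Elongation was represented by 3 genes, all Present on all 6 arrays. EEF1A1, which carries charged tRNAs to the ribosome, had 14.87, 14.93 and 14.90 in Yorkshire and 14.84, 14.69 and 14.79 in Shaziling. The breeds did not overlap, but the difference was small, at -0.12 (SE 0.10, 95% interval -0.36 to 0.11, limma adjusted p = 0.732). Its second probe set had 0.00 (SE 0.24). The alignment identity in the file was 55.1% for the first and 89.6% for the second. The file places them on opposite strands of chromosome 1, minus for the first and plus for the second. EEF1G, a structural subunit of the exchange complex, had 14.33, 14.18 and 14.39 against 14.58, 14.32 and 14.36, or 0.12 (SE 0.13). EEF1E1, named as an elongation factor but known as a member of the multi-synthetase complex, had 9.67, 9.91 and 9.75 against 9.43, 9.50 and 9.44. Its log2 difference was -0.32 (SE 0.19, limma adjusted p = 0.616) without overlap, and its second probe set had -0.41 (SE 0.30).

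Of the 15 genes with more than 1 tested probe set, 9 had the same sign in all and 6 did not, and the largest gap was 0.85, for FARSA. Low alignment identities in the file were not limited to the probe sets marked above. Among others, EIF3E had 66.45%, the second SARS probe set 69.39% and the second EEF1E1 probe set 51%. Their genes are likewise less certain.

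Within gene groups, single animals often lay highest or lowest together. Yorkshire replicate 2 had the highest signal in 4 of 6 genes of eIF2 and eIF2B and 4 of 7 of eIF3, and in 12 of 26 initiation genes, against 23.7% of all tested probe sets. Its mean deviation from the average of the 6 arrays was 0.41 for eIF2 and eIF2B and 0.30 for eIF3, while Yorkshire replicate 1 was at -0.22 and -0.19. The Shaziling animals lay between -0.14 and 0.07 in both. The eIF4 group had another order, with Shaziling replicate 4 at -0.22 and Yorkshire replicate 2 at -0.16 against 0.16 for Shaziling replicate 6. The 17 cytosolic synthetases were highest on Shaziling replicate 4, at 0.23, and lowest on Shaziling replicate 6, at -0.17. In the mitochondrial synthetases the group means lay apart by breed, at 0.30, 0.42 and 0.11 in Yorkshire and -0.20, -0.30 and -0.32 in Shaziling. These are means over 5 genes that include the mitochondrial HisRS and MetRS, the members of smallest adjusted p. Of the 5 genes, 3 had breeds that did not overlap, all lower in Shaziling. Among all tested probe sets 16.3% did not overlap, with 8.89% lower in Shaziling. IARS2 and the arginine enzyme overlapped, and the arginine enzyme had a positive difference. All tested probe sets together had mean deviations of -0.06 to 0.03.

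**Figure D4:**
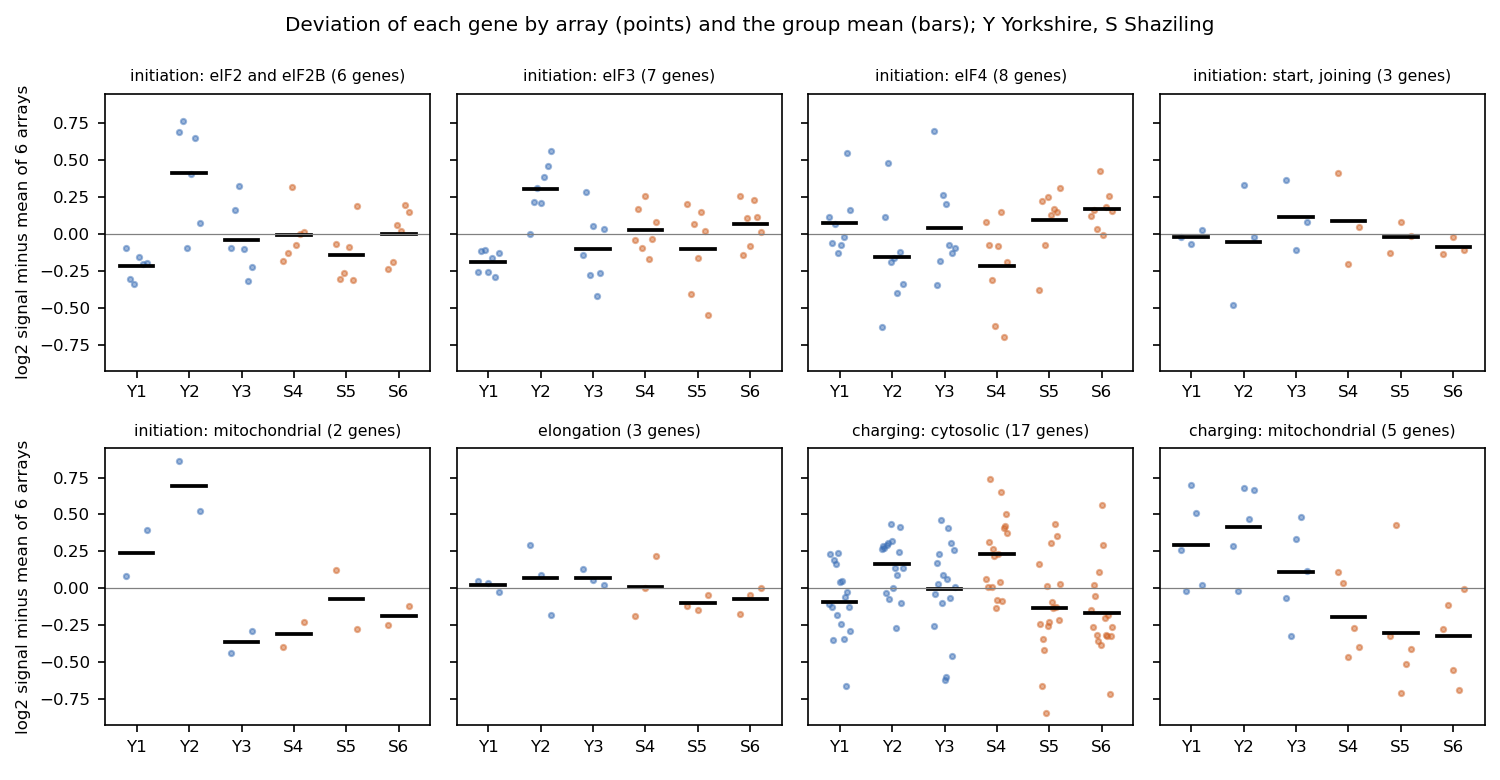
Deviation of each gene's log2 signal from its mean over the 6 arrays, by array and functional group; points are genes, black bars the group mean, Y Yorkshire and S Shaziling. Yorkshire replicate 2 is high in eIF2, eIF2B and eIF3, Shaziling replicate 4 in cytosolic charging, and the means of mitochondrial charging are 0.11 to 0.42 on Yorkshire and -0.32 to -0.20 on Shaziling arrays.

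Genes that act around this machinery also had no member past the threshold. Of the 5 tested release and recycling factors (of 8), which end translation and free the ribosome, all were positive and 0 passed, with a median of 0.09. ABCE1, the recycling ATPase, had 0.16 (SE 0.20), GSPT2, a release GTPase, 0.19 (SE 0.25) and MTRF1L, a mitochondrial release factor, 0.09 (SE 0.29). Of the 9 tested genes of upstream control (of 17), 2 had positive and 7 negative values (median -0.12). MKNK1, the kinase that phosphorylates eIF4E, had 8.60, 8.94 and 9.07 in Yorkshire and 8.44, 7.86 and 7.95 in Shaziling. It lay lower in all Shaziling animals, with a breed difference of -0.79 (SE 0.25, limma adjusted p = 0.323). PDCD4, an inhibitor of eIF4A, had -0.27 (SE 0.18), and EIF4EBP2, an inhibitor of eIF4E, -0.26 (SE 0.22). Of the 7 tested targets of the integrated stress response (of 15), a program that also includes many cytosolic synthetases, 3 had positive and 4 negative values (median -0.07). DDIT3, a transcription factor of that response, had 9.28, 9.08 and 9.01 against 8.15, 7.995 and 8.78, or -0.81 (SE 0.26, limma adjusted p = 0.319). ASNS, the asparagine synthetase, had 10.33, 8.31 and 10.61 against 11.50, 10.41 and 10.36, or 1.005 (SE 0.56, limma adjusted p = 0.579), with Yorkshire replicate 2 far below the other animals. PHGDH, of serine synthesis, had 0.90 (SE 0.74).

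Beside the mitochondrial synthetases, the signal of myoglobin MB differed by -0.99 (SE 0.28, limma adjusted p = 0.288), and the breeds overlapped. The other 5 of the 6 muscle fibre markers were positive, with ACTA1 at 0.32, CKM at 0.13, MYH4 at 0.06, MYH7 at 0.05 and TTN at 0.38, and the list's median was 0.10. The endothelial genes VWF, at 2.25 (SE 0.45, limma adjusted p = 0.120), and CDH5, at -0.68 (SE 0.29), had opposite signs, and PECAM1 had -0.17 (SE 0.36). Their part in the synthetase values was not tested.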

How the data were processed

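Muscle RNA of 6 piglets was measured on porcine arrays, 1 per animal. The authors deposited log2 signals, and the submitters' processing notes name MAS5 without a version. The arrays had been scaled before deposit (2% trimmed mean 500.1 to 500.2). Each signal has a detection call (Present, Marginal or Absent). Both deposited tables held the same signals, with 0 differing values. Array number and signal over background limit the precision.

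Members were named through Entrez IDs and a RefSeq table (Sscrofa11.1, names and gene order only), otherwise by the file's symbol or title; positions are the file's, whose assembly is not readable. The probe set of highest mean signal stands for a gene. Shaziling minus Yorkshire was fitted in R 4.3.3 by limma 3.58.1 (lmFit, eBayes with trend=TRUE) on 14413 probe sets Present on at least 3 of 6 arrays, with Benjamini-Hochberg adjustment and a threshold of 0.05, and the procedure was tested on simulated data. Members and gene lists were chosen with earlier results of these data known. Genes given in full were the 6 of smallest p and 3 of highest signal per class and 14 of 22 listed regulators; 8 of these were not analysed here. Alternatives were other filters, scalings, an offset of 32, no trend, array weights, a covariate, gene means and leaving out each array. One marker list is not reported here.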

Additional observations from a re-analysis of the deposited data

How the results depend on the processing

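Over 16 alternatives the count of member probe sets past the threshold stayed at 0, except for 3 with array weights, and over the fits that leave out 1 array it was 0 to 0. The count over all probe sets was 31. It was 13 without a filter, 19 with Present calls on all 6 arrays, 8 without the variance trend, 364 with array weights, 10 genes with means over probe sets, and 0 to 27 with 1 array left out: 0 when Yorkshire replicate 1 or Shaziling replicate 6 was left out (1020 and 1096 at an unadjusted limma p under 0.05), 11 for Yorkshire replicate 2 and 5 for Shaziling replicate 5. The median of elongation genes was -0.23 under quantile normalization, -0.26 under cyclic loess and -0.061 with means over probe sets, and -0.16 to -0.08 with 1 array left out. That of charging genes was -0.16 to 0.060 and that of initiation genes -0.07 to 0.02 with 1 array left out. Of the 30 genes given in full, 16 kept their sign under every alternative. The 14 that changed it were all far from the threshold. AIMP1 was at -0.10 under quantile normalization, -0.062 under cyclic loess, -0.063 with gene means and -0.084 with the covariate, and EIF3E at -0.0030, -0.044 under cyclic loess and -0.10 with the covariate. EEF1G was at -0.0021 under cyclic loess. With array weights EIF2S1 was at 0.063, EIF5A at -0.015 and WARS at -0.14. With the covariate EIF3H was at -0.10, EIF4A1 at 0.24, EIF4E at -0.13 and WARS at -0.10. With 1 array left out the ranges were -0.073 to 0.13 for AIMP1, -0.076 to 0.25 for EIF2B5, -0.20 to 0.083 for EIF2S1, -0.075 to 0.22 for EIF3E, -0.041 to 0.36 for EIF3H, -0.47 to 0.20 for EIF4A1, -0.17 to 0.36 for EIF4E, -0.37 to 0.10 for EIF4G1, -0.12 to 0.30 for EIF5A, -0.082 to 0.46 for GARS, -0.10 to 0.37 for LARS, -0.17 to 0.41 for WARS and -0.070 to 0.25 for the cytosolic MetRS. The 5 synthetase pairs kept their sign under both scalings and with each array left out, alternatives chosen after seeing the data. The causes were not tested. No paired analysis was possible because the replicate numbers of the breeds are not shared. A comparison of EEF1A2 with EEF1A1 was not run, as no probe set was named EEF1A2 here.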
